A study of Mus musculus with 24 samples.

Results

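The genes described here are 39 genes of the contractile apparatus, calcium release and energy metabolism of skeletal muscle, which were chosen by symbol from the 27180 gene rows of the count tables. All 39 were found, and all 39 passed the filter on low counts in every fit. By their known fibre type, 14 were grouped as fast fibre genes, 6 as slow fibre genes, 10 as structure and calcium release genes used by both fibre types, and 9 as metabolic and regulatory genes used by both. They were measured by RNA sequencing of whole mouse skin in 24 libraries, 3 in each of 8 groups. Ear skin came from C57BL/6 mice (C57) and K14E7 mice (E7) aged 8 weeks. The other 6 groups were skin of C57BL/6, K14E7 or CD1dKOxK14E7 (CD1dKOxE7) donors, labelled as grafted ear skin and collected 14 or 28 days after grafting (dpg). Every graft was on a C57BL/6 recipient, so recipient cells with neither the transgene nor the deletion could enter each graft library. In K14E7 mice the human papillomavirus E7 oncoprotein is driven by the keratin 14 promoter, which is active in basal keratinocytes and not in muscle. CD1d presents lipid antigens to natural killer T cells, and CD1dKOxE7 donors carry the transgene on a CD1d-deficient background. The ages of graft donors and recipients, and whether replicates came from separate animals, were not given in the labels, so p-values measure only the spread between these libraries.

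Skeletal muscle contracts when calcium released from the sarcoplasmic reticulum binds troponin on the thin filament and lets myosin heads pull on actin. Most sarcomere proteins come in fast and slow forms from separate genes, and a fibre is classed by its myosin heavy chain: Myh4, Myh1 and Myh2 encode the fast IIb, IIx and IIa chains, and Myh7 the slow chain. In the mouse, whole ear skin holds thin sheets and bundles of striated auricular muscle beside the cartilage, and skin of the trunk lies on the panniculus carnosus, a sheet of mainly fast muscle. Muscle fibres lost to injury are rebuilt from satellite cells, whose progeny express Myog, fusion genes such as Mymk and developmental myosins.

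Libraries held 6550011 to 13814448 counts, and levels are given as CPM (a gene's counts scaled to a common library size) on library totals scaled by TMM over all 24 libraries. A total of 3 counts in 1 library, read here as the floor, corresponded to 0.217 to 0.458 CPM. Sequencing runs followed the groups: ears shared 1 flow cell and grafts another, and within the graft flow cell the CD1dKOxE7 libraries had a lane to themselves. Tissue and flow cell, and CD1dKOxE7 donor and lane, cannot be told apart. Cd1d1, the gene targeted in the CD1dKOxE7 donors, was not absent from their grafts: its CPM were 13.6, 17.2 and 11.4 at 14 dpg and 5.33, 4.44 and 14.7 at 28 dpg, while the 3 E7 libraries of 28 dpg had 25.8, 21.4 and 23.1. The counts do not show which part of the gene was read, and CD1dKOxE7 libraries are therefore named below as labelled. Replicate 3 of the CD1dKOxE7 grafts at 28 dpg stood apart from replicates 1 and 2. A chi-square of the counts per degree of freedom was 31.5 and 27.2 between it and them and 5.19 between those 2. Replicate pairs of all groups ran from 3.78 to 31.5, and E7 graft replicates 2 and 3 at 14 dpg were at 27.7. Trunk-type Hox genes were another difference. Over the list of 12 the summed level was 7.79 to 21.0 CPM in ears and 20.1 to 86.2 CPM in grafts, which overlapped. Hoxd8 and Hoxd9 were present in both tissues, at 36 to 157 counts in each ear library. Over the other 10 genes, a split made after these values were seen, ear libraries held 2 to 6 counts each and graft libraries 71 to 496. The labelled CD1dKOxE7 replicates 1 and 2 at 28 dpg had the lowest totals of all grafts over the 10 genes, 119 and 71 counts, against 361 in replicate 3.

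The 39 genes together took 1.38, 0.985 and 1.76% of all counts in the 3 C57 ear libraries and 0.461, 0.422 and 0.31% in the 3 E7 ear libraries. Every graft held less than every C57 ear, between 0.0275% in an E7 graft at 14 dpg and 0.894% in a C57 graft at 28 dpg. In whole tissue, fewer muscle fibres and less RNA per fibre cannot be told apart. Per kilobase of coding sequence, the highest levels in C57 ear were those of Acta1, skeletal alpha-actin of the thin filament (1027 ± 339 CPM per kilobase, SD, n = 3), Mylpf, the fast regulatory light chain (989.8 ± 293), and Mb, the oxygen store myoglobin (964 ± 195). The fast troponin C, Tnnc2, was at 819 ± 247 CPM per kilobase and its slow paralog Tnnc1 at 50.1 ± 22.3. The slow heavy chain Myh7 was at 17.6 ± 7.78 CPM per kilobase, rank 31 of the 39. On this scale Mb was the only slow member among the first 10. Defining genes of both fast and slow muscle were present in the libraries labelled as whole ear.

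In ear, all 39 muscle genes fell in E7 against C57 skin (edgeR quasi-likelihood test, Benjamini-Hochberg adjusted p below 0.05), and for all 39 every E7 library was below every C57 library. Of the 15720 genes tested, 32.7% fell, and 35.7% had no overlap in that direction and 35.4% in the other. The median log2 fold change was -1.64 over the 39, against 0.002 over all genes tested. Fast members had a median of -1.79 (range -2.84 to -1.15), slow members -1.59 (-2.11 to -1.45), structure genes -1.53 and metabolic genes -1.79.

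Acta1 was at 1160, 779 and 1545 CPM in the C57 ears and 499.8, 396 and 320.4 CPM in the E7 ears (log2 fold change -1.52 ± 0.31 SE, adjusted p = 0.00758). Ckm, the creatine kinase that buffers ATP in muscle, was at 419, 312 and 549.9 CPM in C57 and 142, 118 and 92.4 CPM in E7 ears (-1.86 ± 0.27, adjusted p = 0.00219). Both genes were highest in the third C57 library and lowest in the third E7 library. Among fast genes the largest falls were those of Mybpc2, fast myosin-binding protein C (-2.84 ± 0.29, adjusted p = 0.000254), and Actn3, the fast-fibre Z-disc actinin (-2.76 ± 0.32, adjusted p = 0.000884). Mybpc2 stood at 50.7, 46.4 and 74.6 CPM in C57 and 11.0, 6.34 and 6.72 CPM in E7 ears. Myh4 was at 1108, 816 and 1568 CPM in C57 and 277, 231 and 164 CPM in E7 ears (-2.38 ± 0.33, adjusted p = 0.00174), and the neighbouring Myh1 at 1570, 985 and 1641 and 684, 728 and 480.1 CPM (-1.15 ± 0.25, adjusted p = 0.00804). The difference between the fold changes of these neighbours was not tested. Tnnt3, fast troponin T, fell as well (-1.64 ± 0.23, adjusted p = 0.00137).

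Among slow genes, Myh7 fell from 96.7, 60.1 and 149.9 CPM to 26.8, 22.9 and 21.4 CPM (-2.11 ± 0.40, adjusted p = 0.00732) and Tnni1, slow troponin I, from 33.1, 22.7 and 45.9 to 13.3, 12.7 and 10.4 CPM (-1.49 ± 0.28, adjusted p = 0.00431). Tnnc1 had a log2 fold change of -1.91 ± 0.39, adjusted p = 0.00631. In the shared classes the largest falls were those of Mylk2, the skeletal myosin light chain kinase (-2.09 ± 0.25, adjusted p = 0.000521), Cacna1s, the voltage sensor of calcium release (-1.88 ± 0.26, adjusted p = 0.0014), Mstn, which encodes the growth inhibitor myostatin (-2.44 ± 0.26, adjusted p = 2.62e-05), and Pygm, muscle glycogen phosphorylase (-1.93 ± 0.31, adjusted p = 0.00362). Of 30 other genes of mature skeletal muscle, all 30 fell (median -1.56). Genes of neighbouring tissues were lower too. All 10 cartilage genes tested fell (median -2.02, summed level 521 to 704 CPM in C57 and 144 to 163 CPM in E7), as did all 9 adipocyte, all 7 Schwann cell and all 6 smooth muscle genes tested, while 7 of 8 epidermal genes rose. The summed epidermal level was 23870 to 26070 CPM in C57 and 48610 to 53860 CPM in E7 ears. The part of these in the lower muscle values was not tested.

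**Figure D1:**
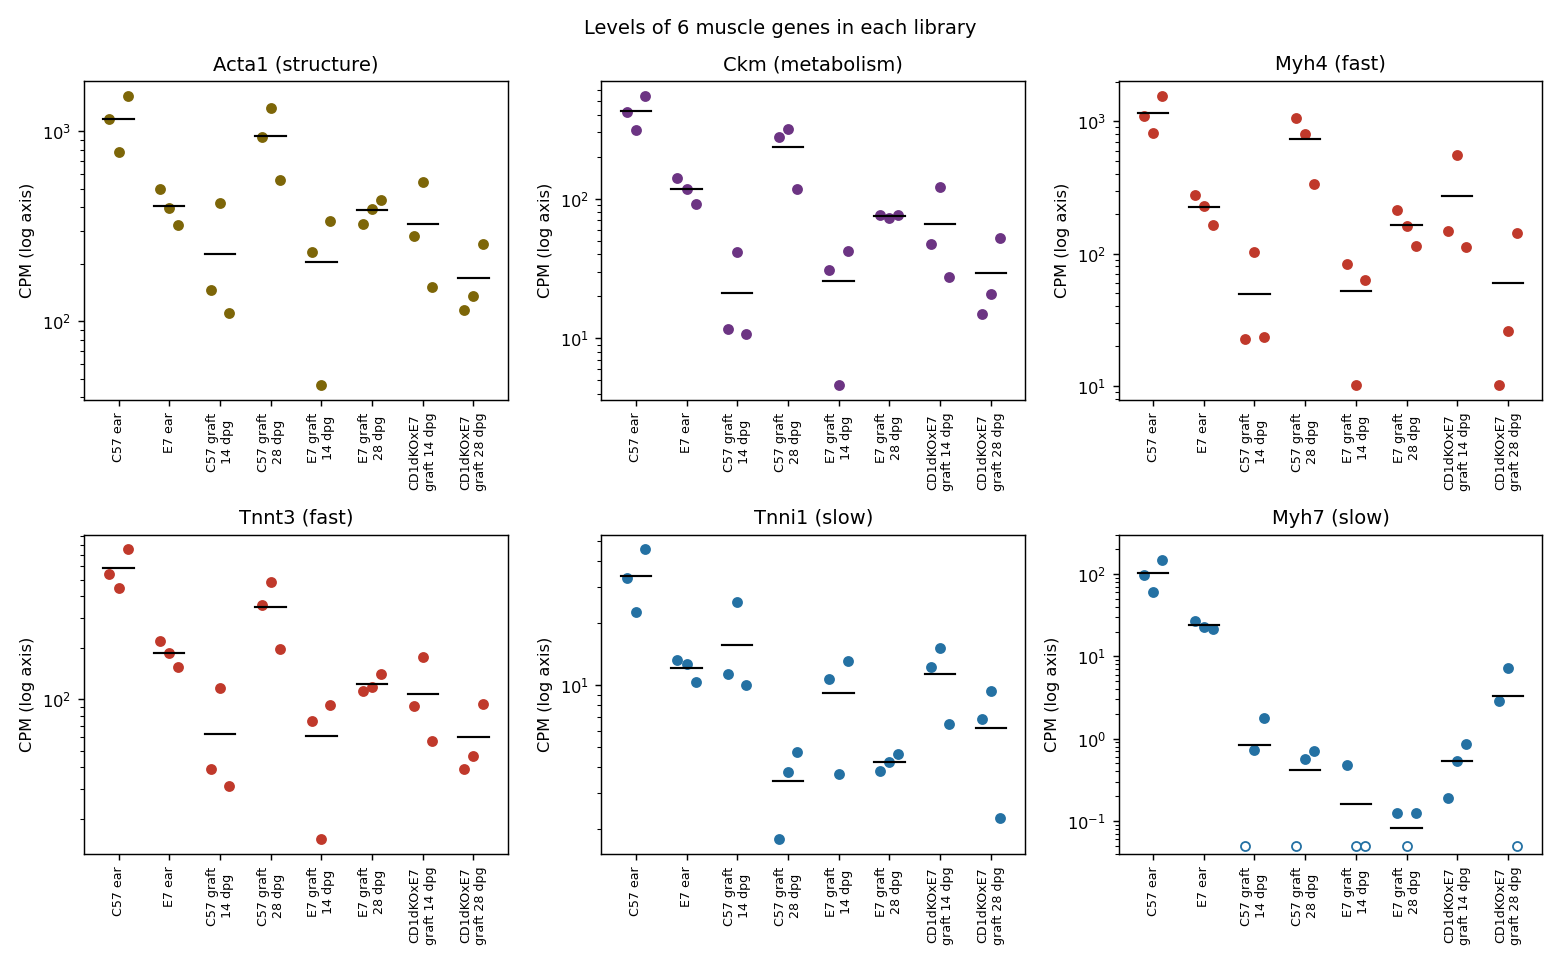
CPM of Acta1, Ckm, Myh4, Tnnt3, Tnni1 and Myh7 on log axes, with 1 point per library, the 8 groups on the horizontal axis and a bar at the mean of the 3 libraries. Open points at the lower edge of the Myh7 panel are libraries with 0 counts. All 3 E7 ears lie below all 3 C57 ears in each panel, and Myh7 is at 1.79 CPM or less in every graft other than CD1dKOxE7 replicates 1 and 2 at 28 dpg.

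Against C57 ear, C57 grafts at 14 dpg had lower levels of every muscle gene: all 39 fell, where 22.0% of 16612 genes tested fell, and 38 had no overlap, where 27.3% of all genes had none in that direction. The exception to the separation was Tnni1, at 11.4, 25.5 and 10.0 CPM in the grafts against 33.1, 22.7 and 45.9 CPM in ear (-1.13 ± 0.44, adjusted p = 0.0389). This fall lost significance without the first or the third C57 ear library or either of graft replicates 1 and 3 (adjusted p = 0.0681, 0.159, 0.11 and 0.12). Median log2 fold changes were -3.37 for fast, -3.59 for slow, -3.25 for structure and -3.66 for metabolic genes, against 0.063 over all genes tested. Expressed as a share of the C57 ear mean, fast members were at a median of 9.87% (range 4.26 to 22.9%) and slow members at 8.48% (range 0.821 to 46.2%).

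Graft replicates at 14 dpg differed widely. Acta1 was at 147, 419 and 111 CPM (-2.37 ± 0.64, adjusted p = 0.0046 against ear), and replicate 2 was the high library for all 6 genes of the plot of levels by library other than Myh7. Ckm was at 11.6, 41.3 and 10.7 CPM (-4.36 ± 0.73, adjusted p = 8.66e-05) and Myh4 at 22.7, 102 and 23.5 CPM (-4.57 ± 0.97, adjusted p = 0.000774). Among the largest falls were Rpl3l, a ribosomal protein paralog of striated muscle (-5.94 ± 0.69, adjusted p = 1.22e-06), Apobec2, a muscle-expressed member of the deaminase family (-4.60 ± 0.68, adjusted p = 2.34e-05), Tcap, the titin cap (-4.83 ± 0.56, adjusted p = 1.81e-06), Mylk2 (-4.82 ± 0.59, adjusted p = 2.77e-06), the calcium pump Atp2a1 (-4.17 ± 0.69, adjusted p = 7.06e-05) and Tnnt1 (-4.01 ± 0.46, adjusted p = 1.21e-06). The fall of Tnnt3 was smaller than the fast median (-3.23 ± 0.61, adjusted p = 0.000274). Myh7 had 4200 counts over the 3 C57 ears and 20 over the 3 grafts, 0.759% of the ear level (exact 95% interval 0.463 to 1.17%, for counting error only). This percent is from pooled counts over unscaled library totals, while the 0.821% given for the slow range is from mean CPM.

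Of 9 genes of satellite cells and muscle regeneration tested in the same grafts, 4 rose and 1 fell, where 30.6% of all genes rose. Those that rose were Myh8, the perinatal heavy chain (log2 fold change 2.82 ± 0.59, adjusted p = 0.000658), Myog, a myogenic regulator (2.22 ± 0.61, adjusted p = 0.00486), Mymk, the fusion protein myomaker (5.28 ± 0.77, adjusted p = 1.15e-05), and Chrng, the embryonic acetylcholine receptor subunit (4.22 ± 0.90, adjusted p = 0.00061). Myog and Chrng were also on a list of 10 genes that respond to loss of the nerve. The summed level of that list was 121 to 165 CPM in C57 ear and 153 to 197 CPM in these grafts, which overlapped. The parts of regeneration and nerve loss in these rises were not tested. Myh8 was at 8.42, 6.15 and 9.67 CPM in C57 ear and 39.03, 109 and 24.4 CPM in C57 grafts at 14 dpg. Myh3, the embryonic heavy chain, fell (-2.77 ± 0.51, adjusted p = 0.000205), from 116, 97.4 and 151 to 8.97, 32.5 and 12.9 CPM. The adult and developmental chains are near-identical in places, so reads could be split between them.

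Between 14 and 28 dpg in C57 grafts, 28 of the 39 genes rose and 2 fell, where 8.40% of 16189 genes tested rose and 14.2% fell. The 28 were 13 of 14 fast, 8 of 10 structure and 7 of 9 metabolic genes, and none of the 6 slow genes rose. Both that fell were slow, Tnnc1 and Tnni1. Median log2 fold changes were 2.48 for fast members (range 1.70 to 4.62), 2.02 for structure, 2.93 for metabolic and -0.56 for slow members (-2.54 to 1.32), against -0.029 over all genes. At 28 dpg 31 genes were above and 2 below every library of 14 dpg, where 17.1% and 26.0% of all genes were. The count of calls rested on single libraries: without C57 replicate 1 at 14 dpg 13 rose and 2 fell, without replicate 3 at 14 dpg 15 rose and 2 fell, and without replicate 2 at 28 dpg 18 rose and 1 fell.

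Acta1 was at 937, 1329 and 556 CPM in C57 grafts at 28 dpg (2.07 ± 0.69, adjusted p = 0.043 against 14 dpg), with no overlap between the days. Myh4 reached 1054, 807 and 334 CPM (3.91 ± 1.05, adjusted p = 0.0164) and Ckm 278, 314 and 118 CPM (3.51 ± 0.79, adjusted p = 0.00632). The largest rise was that of Mybpc2, from 2.65, 6.57 and 1.79 CPM to 106, 109.6 and 45.0 CPM (4.62 ± 0.93, adjusted p = 0.00317). Replicate 3 at 28 dpg was the lowest of its group in all of these. Rpl3l (4.19 ± 0.82, adjusted p = 0.00242), Apobec2 (3.86 ± 0.76, adjusted p = 0.00274), Pvalb, the calcium buffer parvalbumin (3.72 ± 0.71, adjusted p = 0.00224), Mylk2 (3.40 ± 0.67, adjusted p = 0.00258), Tcap (2.45 ± 0.63, adjusted p = 0.0129) and Tnnt3 (2.49 ± 0.66, adjusted p = 0.0152) rose too.

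Among the slow genes, those that passed were lower at 28 dpg. Tnni1 was at 11.4, 25.5 and 10.0 CPM at 14 dpg and 1.79, 3.77 and 4.74 CPM at 28 dpg (-2.21 ± 0.57, adjusted p = 0.0125), and Tnnc1 at 5.30, 9.92 and 4.41 and 1.07, 0.839 and 1.39 CPM (-2.54 ± 0.71, adjusted p = 0.0185). The days did not overlap for either gene. Tnnt1, slow troponin T, was at 3.16, 10.7 and 5.60 and 4.56, 6.15 and 9.34 CPM (0.05 ± 0.53, adjusted p = 0.959), and the days overlapped. Mb (1.07 ± 0.55, adjusted p = 0.187) and Mybpc1, slow myosin-binding protein C (1.32 ± 0.56, adjusted p = 0.106), had positive values that did not pass. Myh7 had 20 counts over the 3 libraries at 14 dpg and 9 at 28 dpg (-1.18 ± 1.42, adjusted p = 0.601).

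Single libraries also decided some of these calls. Without C57 replicate 1 at 14 dpg, the adjusted p was 0.142 for Acta1, 0.069 for Myh4, 0.067 for Tnnt3 and 0.0599 for Tcap. Without replicate 3 at 14 dpg it was 0.133, 0.062, 0.0599 and 0.0512 for the same genes. Without replicate 2 at 14 dpg it was 0.0653 for Tnni1 and 0.0764 for Tnnc1. Without replicate 1 at 28 dpg it was 0.0782 for Acta1, 0.0607 for Tnni1 and 0.0638 for Tnnc1, and without replicate 2 at 28 dpg 0.131 for Acta1, 0.0543 for Tnnt3 and 0.0643 for Tnnc1. Of 30 other mature muscle genes 18 rose and none fell. All 7 Schwann cell genes rose over the same interval, and their part in the muscle values was not tested.

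**Figure D2:**
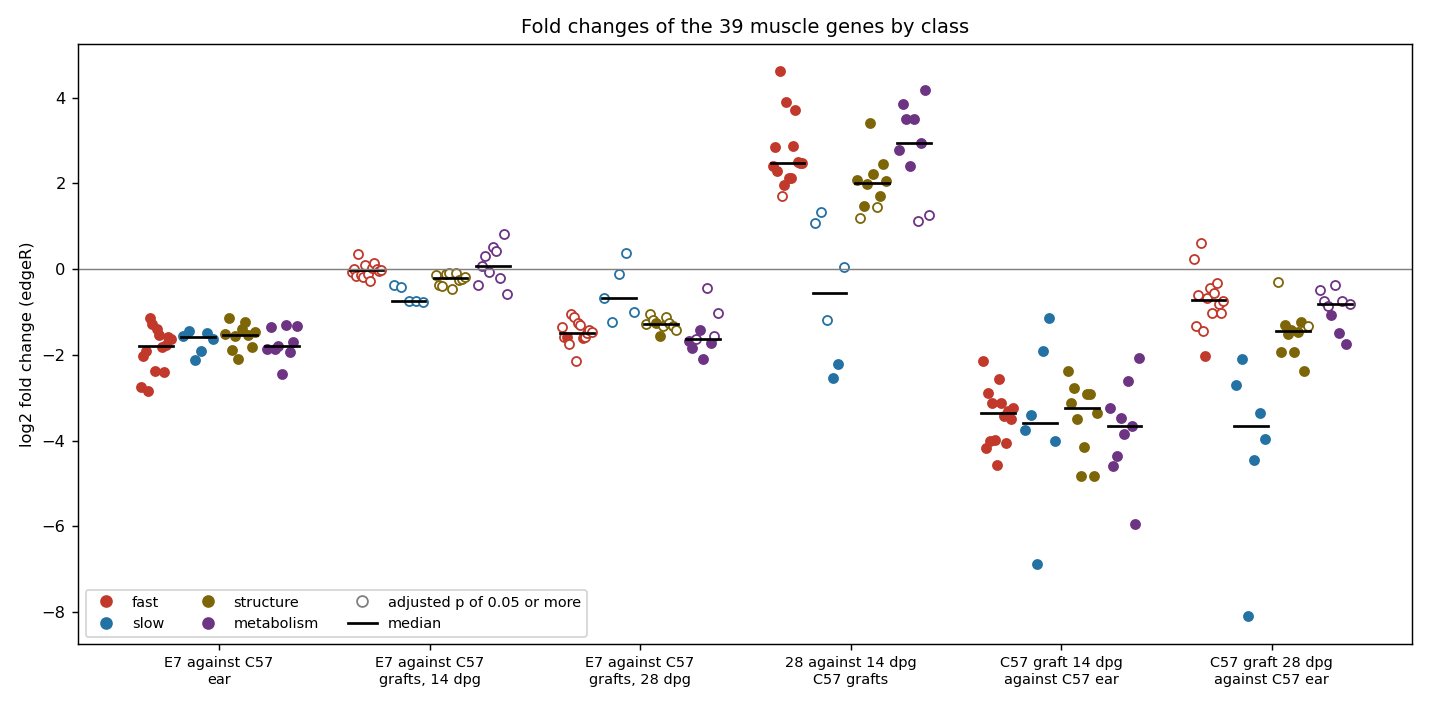
Log2 fold changes of the 39 genes by class in 6 comparisons, 1 point per gene, filled where the adjusted p was below 0.05, with a bar at the class median. Myh7 is left out of both comparisons of E7 with C57 grafts because an E7 group held 3 or fewer counts. The slow bars of these comparisons leave it out, while the slow medians in the text include it. From 14 to 28 dpg in C57 grafts the fast median was 2.48 and the slow median -0.56.

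By 28 dpg the fast genes of C57 grafts were closer to ear than the slow genes were. Against C57 ear 18 of 39 fell, where 18.0% of genes fell, and these were all 6 slow, 8 of 10 structure, 3 of 9 metabolic and 1 of 14 fast genes. Fast members stood at a median of 61.1% (range 24.5 to 152%) of the ear mean and slow members at 8.33% (range 0.41 to 23.4%). Mybpc2 was at 152% and Actn3 at 118% of the ear mean. The fast gene that fell was Myh2, the IIa chain (-2.03 ± 0.53, adjusted p = 0.00574), at 306, 271 and 465 CPM in ear and 67.3, 94.8 and 93.6 CPM in the grafts. Myh4 (-0.67 ± 0.83, adjusted p = 0.551), Acta1 (-0.30 ± 0.60, adjusted p = 0.72), Tnnt3 (-0.75 ± 0.56, adjusted p = 0.302) and Ckm (-0.85 ± 0.62, adjusted p = 0.29) overlapped ear. An uncalled difference of this size, with SEs of 0.56 to 0.83, does not show that the levels were equal.

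The slow genes had log2 fold changes of -8.11 to -2.10 in C57 grafts at 28 dpg against ear. Tnnc1 was at 1.07, 0.839 and 1.39 CPM against 22.3, 14.5 and 35.8 CPM in ear (-4.45 ± 0.63, adjusted p = 3.05e-05), and Tnni1 (-3.36 ± 0.52, adjusted p = 8.21e-05) and Tnnt1 (-3.97 ± 0.46, adjusted p = 5.24e-06) fell likewise. Myh7 held 9 counts over the 3 grafts, 0.332% of the ear level by pooled counts over unscaled totals (0.152 to 0.632%). Of 7 other slow or cardiac-type muscle genes 5 fell (median -2.67), and their summed level was 489 to 603 CPM in ear and 284.8 to 335 CPM in the grafts. The largest falls among them were those of Myl2, the slow regulatory light chain, with 1857 counts in ear and 6 in the grafts, and Myl3, the slow essential light chain, with 601 and 7. On pooled counts over unscaled totals these were 49.1 and 0.246 CPM for Myl2 and 15.9 and 0.287 CPM for Myl3. The summed level was therefore carried by the other genes of the list and does not follow these falls. The calcium pump Atp2a2 fell least (-0.59 ± 0.10, adjusted p = 0.000197), and Casq2 (-0.63 ± 0.43, adjusted p = 0.257) and Sln (-0.79 ± 0.56, adjusted p = 0.277) did not pass. In E7 against C57 ear Atp2a2 rose (0.24 ± 0.07, adjusted p = 0.00869) while the other genes of the list fell, so it did not move with them there. Among the shared genes that fell were Tcap (-2.39 ± 0.48, adjusted p = 0.000843), the actinin Actn2 (-1.93 ± 0.50, adjusted p = 0.00577), Rpl3l (-1.75 ± 0.46, adjusted p = 0.00597) and Myf6, a myogenic regulator of mature fibres (-1.49 ± 0.35, adjusted p = 0.00207). Trunk-type Hox genes differed along with these values: 10 of 12 rose in C57 grafts against ear at each day. Their part in the slow gene values was not tested, and flow cell and tissue cannot be told apart here.

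**Figure D3:**
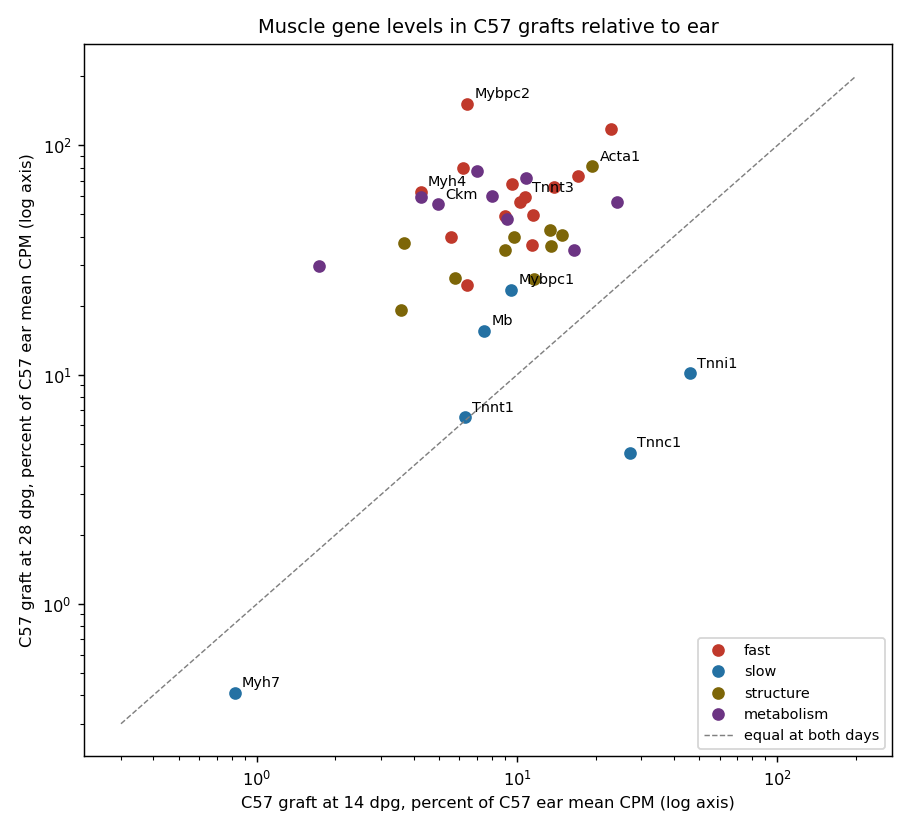
Mean CPM of each gene in C57 grafts at 14 dpg (horizontal) and 28 dpg (vertical) as a percent of its mean in C57 ear, both on log axes, with 1 point per gene coloured by class and a dashed line of equal values. Fast genes lie above the line, between 24.5 and 152% at 28 dpg, and Tnni1, Tnnc1 and Myh7 lie below it.

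The fibre-type makeup was read from paralog pairs within each library, as log2 ratios per coding length with 0.5 added to each count; these are descriptions with no test. The fast over slow troponin I ratio (Tnni2 over Tnni1) was 3.53, 3.77 and 3.50 in C57 ear and 3.58, 3.47 and 3.30 in E7 ear. It was 1.03, 1.39 and 0.84 in C57 grafts at 14 dpg and 6.86, 6.11 and 4.58 at 28 dpg. C57 grafts at 14 dpg lay below both ear groups, and at 28 dpg above them, with no overlap. The troponin C ratio (Tnnc2 over Tnnc1) followed the same order, at 4.15, 4.25 and 3.84 in C57 ear, 2.17, 2.93 and 2.23 at 14 dpg and 7.68, 8.39 and 6.58 at 28 dpg. The troponin T ratio (Tnnt3 over Tnnt1) did not dip in this way: it was 2.38, 2.64 and 2.38 in C57 ear, 3.55, 3.39 and 2.40 at 14 dpg and 6.22, 6.23 and 4.32 at 28 dpg.

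In E7 grafts the troponin I ratio was 1.83, 1.52 and 2.07 at 14 dpg and 4.10, 3.99 and 4.19 at 28 dpg, again without overlap between days. The myosin-binding protein C pair (Mybpc2 over Mybpc1) differed most between the ear groups, at -2.67, -2.31 and -2.48 in C57 and -3.60, -4.25 and -3.89 in E7. It was near equality in C57 grafts at 28 dpg, at 0.61, 0.16 and -0.40. The ear groups overlapped in the 3 troponin ratios and not in this pair. In both ear groups this pair favoured Mybpc1 while the 3 troponin ratios favoured the fast gene, so it does not read fibre type as they do. In the grafts labelled CD1dKOxE7 at 28 dpg the troponin I ratio was 1.62, 1.64 and 4.57. In this pair replicates 1 and 2 lay near the grafts of 14 dpg, while replicate 3 lay with the other grafts of 28 dpg. The troponin C ratio was 3.47, 3.19 and 6.25, with replicates 1 and 2 again in the range of the 14 dpg grafts. The troponin T ratio was 1.73, 1.46 and 4.53, and here replicates 1 and 2 lay below every other library.

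**Figure D4:**
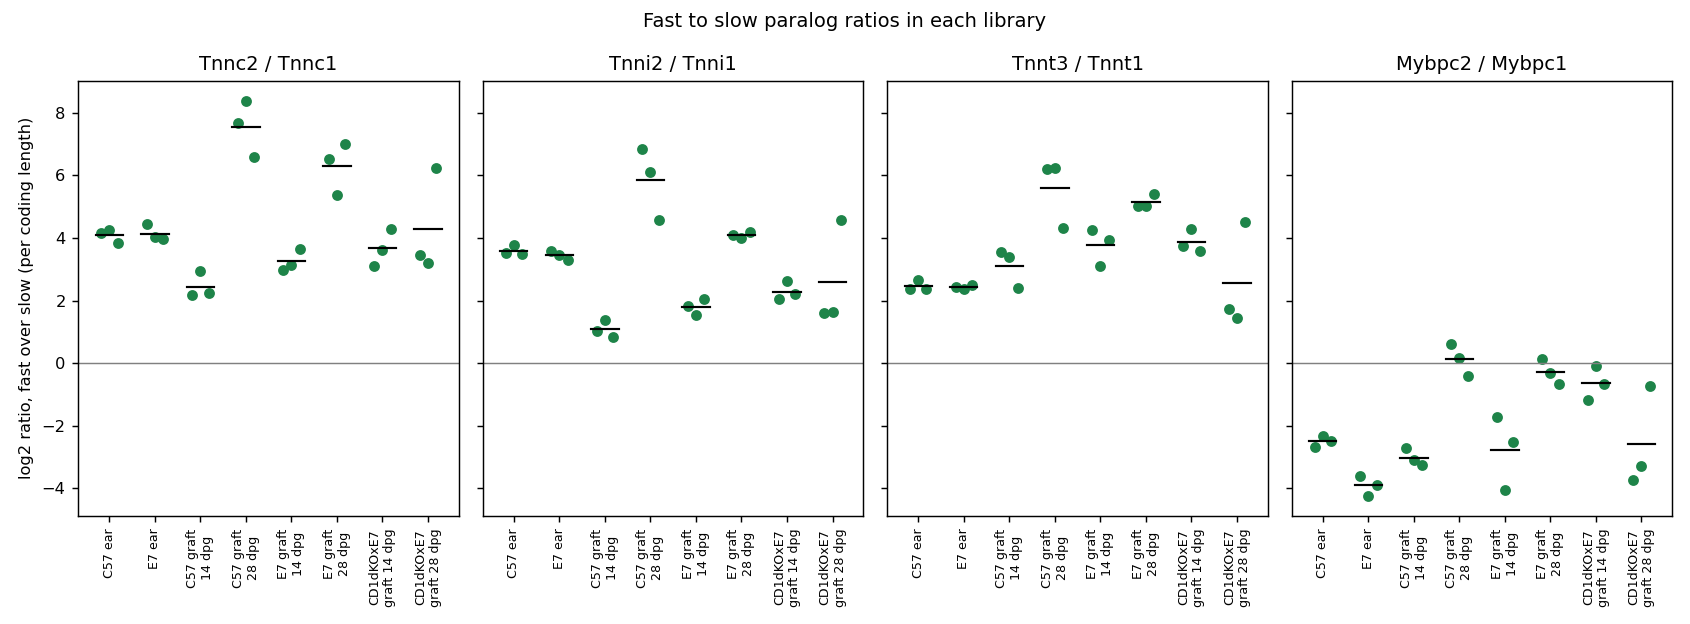
Log2 ratio of the fast over the slow paralog per coding length for 3 troponin pairs and the myosin-binding protein C pair, with 1 point per library and a bar at the mean of 3. The 3 C57 and 3 E7 grafts at 28 dpg lie above both ear groups in all 4 panels.

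The adult heavy chains carry the same comparison. Myh2, Myh1 and Myh4 lie next to each other on chromosome 11, with 2584 bases between Myh2 and Myh1 and 13234 between Myh1 and Myh4, while Myh7 is on chromosome 14. The promoters of these 4 genes are shown because their products define the fibre types; each is the 250 bases before the most upstream start in RefSeq (GRCm38.p6), 5′ to 3′, with capitals marking matches to an E-box, a MEF2 site or a CArG box. They lie at chr11:67237562-67237811 (plus strand), chr11:67199852-67200101 (plus), chr11:67170777-67171026 (plus) and chr14:54994627-54994876 (minus).
Myh4: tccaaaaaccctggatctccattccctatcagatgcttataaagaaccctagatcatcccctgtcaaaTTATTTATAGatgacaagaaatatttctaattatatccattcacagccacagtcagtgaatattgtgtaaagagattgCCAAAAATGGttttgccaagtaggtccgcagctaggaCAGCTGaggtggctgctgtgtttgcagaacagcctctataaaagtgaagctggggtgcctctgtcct
Myh1: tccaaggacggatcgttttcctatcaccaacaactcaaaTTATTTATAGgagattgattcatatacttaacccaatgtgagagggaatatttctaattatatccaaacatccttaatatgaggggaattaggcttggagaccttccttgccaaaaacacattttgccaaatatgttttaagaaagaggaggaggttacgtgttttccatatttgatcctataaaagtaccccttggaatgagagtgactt
Myh2: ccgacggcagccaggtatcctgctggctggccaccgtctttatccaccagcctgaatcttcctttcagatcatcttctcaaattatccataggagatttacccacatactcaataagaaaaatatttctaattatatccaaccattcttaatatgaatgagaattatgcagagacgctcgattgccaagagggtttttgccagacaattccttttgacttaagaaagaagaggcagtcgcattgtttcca
Myh7: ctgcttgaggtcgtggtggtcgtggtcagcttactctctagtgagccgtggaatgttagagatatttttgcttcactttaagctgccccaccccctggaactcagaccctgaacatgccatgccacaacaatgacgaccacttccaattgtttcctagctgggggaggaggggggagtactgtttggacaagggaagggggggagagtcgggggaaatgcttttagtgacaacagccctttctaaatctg
The E-box searched was CAGCTG, and the MEF2 and CArG patterns were searched by their usual consensus on both strands. The E-box was present in 12.7% of 27025 promoters of this length and in 14 of 29 muscle genes with an entry. The MEF2 pattern was in 3.03% of all promoters and in Myh1, Myh4, Pvalb and Ttn, and the CArG pattern in 1.41% and in Acta1, Ldb3 and Myh4. Of these 3 patterns the Myh4 promoter held each and Myh1 the MEF2 pattern, and none was found in the Myh2 or the Myh7 window. Another pair of motifs was searched on both strands and is not in capitals. The MCAT motif CATTCC was in 12.6% of all promoters and in 11 of the 29, among them Myh1, Myh4 and the slow Myh7. The TATA motif TATAAA was in 13.0% of all promoters and in 8 of the 29, among them Myh1 and Myh4. Neither was found in the Myh2 window. A match is a description of letters and not a site or a cause.

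The coding lengths of the 4 chains are 5805 to 5826 bases, so their counts compare nearly per length; reads of near-identical stretches could be split between Myh1, Myh2 and Myh4. In C57 ear Myh4 made up 35.9, 38.3 and 41.0% of the counts of the 4 genes, Myh1 51.0, 46.2 and 42.9%, Myh2 9.94, 12.7 and 12.1% and Myh7 3.14, 2.82 and 3.92%. In E7 ear the Myh4 share was 23.9, 20.5 and 20.9%, below every C57 ear, and the Myh1 share 59.1, 64.6 and 61.4%, above every C57 ear. The Myh4 share was 16.8, 23.7 and 18.0% in C57 grafts at 14 dpg and 72.3, 47.8 and 39.3% at 28 dpg, with no overlap. In E7 grafts the 2 days overlapped, at 32.9, 21.0 and 18.4% and 51.2, 37.8 and 22.9%. In the grafts labelled CD1dKOxE7 it was 42.3, 66.8 and 58.1% at 14 dpg and 5.33, 11.7 and 41.7% at 28 dpg. Exact 95% binomial intervals for the Myh4 share of the last 3 libraries were 4.32 to 6.49%, 10.2 to 13.3% and 39.7 to 43.6%, for counting error only.

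**Figure D5:**
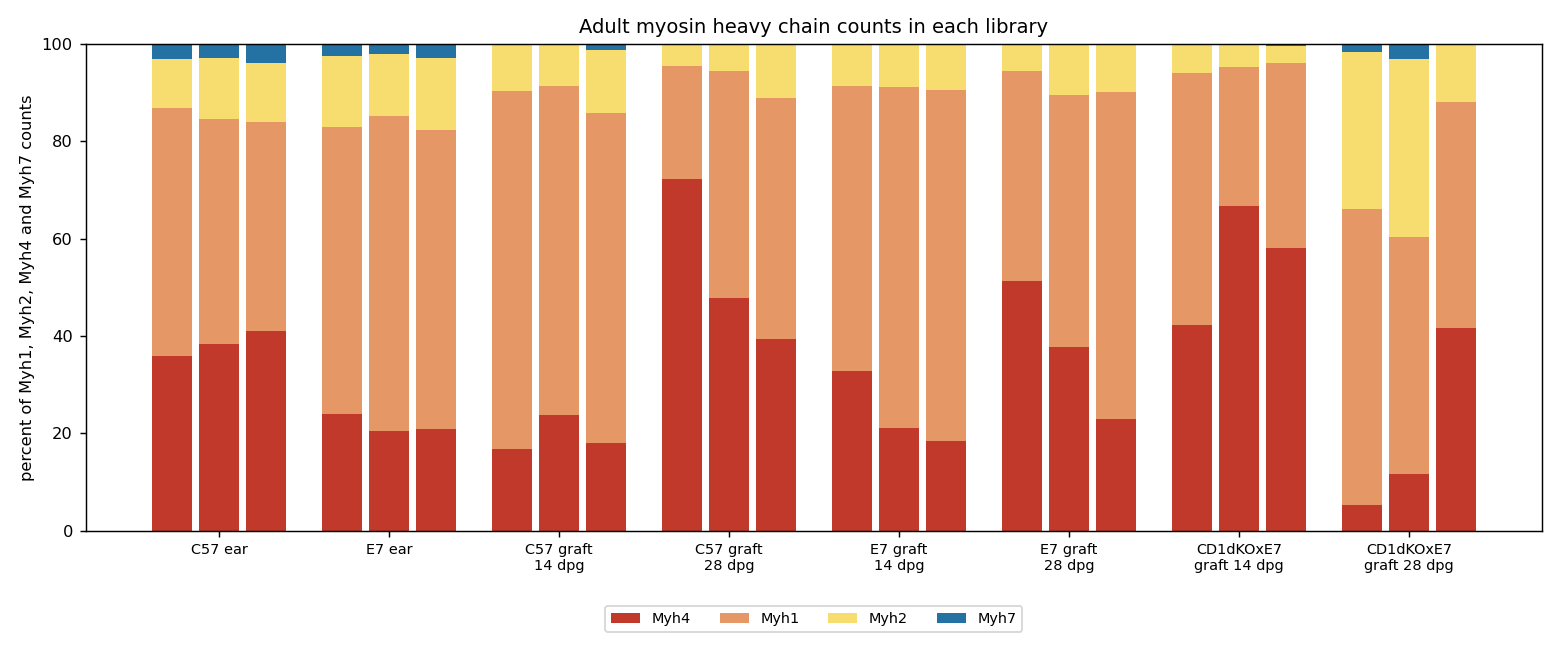
Share of Myh4, Myh1, Myh2 and Myh7 in the summed counts of these 4 genes, in percent, as 1 stacked bar per library in replicate order within each group. Myh7 takes 2.03 to 3.92% in ear and 1.49 and 3.19% in replicates 1 and 2 of the CD1dKOxE7 grafts at 28 dpg, and it takes at most 1.37% in the other grafts.

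Between E7 and C57 grafts at 14 dpg none of the 39 genes passed the test (edgeR), where 15.8% of genes rose and 14.4% fell, and none was free of overlap, where 25.1% and 22.1% of genes were in the lower and higher direction. At an unadjusted p below 0.05 0 passed, and DESeq2 called 0. The median log2 fold change was -0.03 for fast and -0.74 for slow members, against -0.035 over all genes. The slow median includes Myh7, which held only 3 counts over the E7 grafts. Acta1 was at 147, 419 and 111 CPM in C57 and 232, 46.0 and 337 CPM in E7 grafts (-0.13 ± 0.66, adjusted p = 0.904), and Tnni1 at 11.4, 25.5 and 10.0 and 10.8, 3.73 and 13.1 CPM (-0.75 ± 0.52, adjusted p = 0.286). E7 replicate 2 was the lowest of these 6 libraries for both genes, and the largest value belonged to C57 replicate 2. Log2 fold changes of Ckm (0.31 ± 0.79, adjusted p = 0.793), Myh4 (0.09 ± 0.98, adjusted p = 0.955) and Tnnt3 (-0.01 ± 0.65, adjusted p = 0.99) were smaller than their SE. Myh7 held 20 counts over the C57 and 3 over the E7 grafts.

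At 28 dpg 9 of the 39 genes fell in E7 against C57 grafts, where 14.7% of genes fell, and 33 had every E7 library below every C57 library, where 25.5% of genes had. Those that fell were Casq1 (the calcium store calsequestrin) and Myoz1 among fast genes, Mylk2 and Ldb3 among structure genes, and Eno3, Pygm, Ampd1, Mstn and Apobec2 among metabolic genes. No slow gene passed. The median was -1.48 for fast (range -2.15 to -1.05), -1.27 for structure, -1.63 for metabolic and -0.83 for slow genes, against 0.006 over all genes. Myh7, with only 2 counts over the E7 grafts, is included in the slow median.

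Ckm was at 278, 314 and 118 CPM in C57 and 77.1, 73.4 and 76.4 CPM in E7 grafts at 28 dpg (-1.63 ± 0.72, adjusted p = 0.0921). Mstn was at 12.2, 15.2 and 3.63 and 3.10, 3.10 and 0.999 CPM (-2.10 ± 0.73, adjusted p = 0.0374), and Apobec2 at 52.3, 62.8 and 14.5 and 11.4, 11.7 and 12.7 CPM (-1.84 ± 0.65, adjusted p = 0.0406). The groups did not overlap in any of the 3, and the E7 libraries were the more alike among themselves for Ckm and Apobec2. Casq1 (-1.58 ± 0.54, adjusted p = 0.0348), Myoz1, a Z-disc calsarcin (-1.60 ± 0.57, adjusted p = 0.0432), Mylk2 (-1.57 ± 0.58, adjusted p = 0.0477) and Ldb3, a Z-disc scaffold (-1.27 ± 0.46, adjusted p = 0.0447), had the other values named by rule. Acta1 (-1.27 ± 0.67, adjusted p = 0.15), Myh4 (-2.15 ± 0.96, adjusted p = 0.0979) and Tnnt3 (-1.47 ± 0.63, adjusted p = 0.0858) were lower without overlap and did not pass. Tnni1 was at 1.79, 3.77 and 4.74 and 3.85, 4.23 and 4.62 CPM (0.37 ± 0.63, adjusted p = 0.677), and the groups overlapped. Myh7 held 9 and 2 counts.

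The 9 calls rested on every library but 1. None passed without C57 replicate 1 or 2 or E7 replicate 1 or 3 at 28 dpg, and 1 passed without E7 replicate 2. A fit of these 6 libraries alone called 32 genes and a fit of all 24 libraries 21, all lower, while 2 passed with no filter on low counts. Of 30 other mature muscle genes 10 fell and none rose, and all 7 Schwann cell genes fell (median -1.30). In the same comparison 5 of 6 dermal fibroblast genes fell (median -1.03) and 4 of 8 epidermal genes rose, Krt14, Krt1, Flg and Ivl (list median 0.57). Summed fibroblast levels were 19670 to 36930 CPM in C57 and 12660 to 18680 CPM in E7 grafts, and summed epidermal levels 26990 to 31200 and 45550 to 50280 CPM. The part of these in the muscle values was not tested.

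From 14 to 28 dpg in E7 grafts no muscle gene passed (edgeR), where 7.68% of genes rose and 9.48% fell, although 24 of 39 were higher in every library of 28 dpg, where 18.4% of genes were. At an unadjusted p below 0.05 8 passed, and DESeq2 called 3. The fast median was 1.09 and the slow median -0.32, against 0.010 over all genes. Myh7, with only 3 counts at 14 dpg and 2 at 28 dpg, is included in the slow median. Pvalb was at 15.4, 4.17 and 26.3 CPM at 14 dpg and 62.8, 57.8 and 58.6 CPM at 28 dpg (1.99 ± 0.68, adjusted p = 0.06), and Mybpc2 at 7.61, 0.329 and 6.20 and 27.0, 25.4 and 25.0 CPM (2.53 ± 0.91, adjusted p = 0.0694). For both genes the days did not overlap, and E7 replicate 2 at 14 dpg was the lowest library. The Mybpc2 value of that library, 0.329 CPM, was at the floor. The panel values were 0.92 ± 0.67, adjusted p = 0.356 for Acta1, 1.57 ± 0.76, adjusted p = 0.166 for Ckm, 1.67 ± 0.98, adjusted p = 0.254 for Myh4, 1.03 ± 0.64, adjusted p = 0.284 for Tnnt3 and -1.09 ± 0.57, adjusted p = 0.199 for Tnni1. Without E7 replicate 3 at 14 dpg 3 genes rose, and without replicate 2 at 14 dpg 1 fell. When the change over time was compared directly between E7 and C57 grafts, no member passed (edgeR), where 0.148% of genes differed upward and 0.0185% downward. At an unadjusted p below 0.05 0 did, and DESeq2 called 0. The difference, added after the single changes were known, was -1.15 ± 0.94, adjusted p = 0.754 for Acta1, -1.94 ± 1.06, adjusted p = 0.613 for Ckm, -2.24 ± 1.37, adjusted p = 0.659 for Myh4, -1.46 ± 0.90, adjusted p = 0.663 for Tnnt3 and 1.12 ± 0.81, adjusted p = 0.711 for Tnni1. The rise passed in C57 and not in E7 grafts, and the difference between them did not pass.

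Against E7 ear, 28 of the 39 genes fell in E7 grafts at 14 dpg, where 21.3% of genes fell and 21.9% rose (9 of 14 fast, 4 of 6 slow, 9 of 10 structure and 6 of 9 metabolic genes). A fit of those 6 libraries alone called 17. Fast members were at 33.0% (range 13.6 to 145%) of the E7 ear mean. Myh2 was at 169, 145 and 117 CPM in ear and 21.7, 4.28 and 32.5 CPM in the grafts (-2.89 ± 0.58, adjusted p = 0.000646), and Atp2a1 fell (-2.14 ± 0.64, adjusted p = 0.0114). Tnnt1 (-3.16 ± 0.49, adjusted p = 5.64e-05), Tcap (-3.23 ± 0.56, adjusted p = 0.00017), Myot, a Z-disc protein (-3.23 ± 0.54, adjusted p = 0.000124), Rpl3l (-3.43 ± 0.66, adjusted p = 0.00041) and Apobec2 (-3.19 ± 0.68, adjusted p = 0.00113) fell as well. Ckm (-2.20 ± 0.68, adjusted p = 0.0149) and Tnnt3 (-1.62 ± 0.58, adjusted p = 0.0331) passed too, but not without E7 graft replicate 2 (adjusted p = 0.0528 and 0.107); for Tnnt3 the same held without the first or the second E7 ear library or graft replicate 1 (0.0822, 0.0637 and 0.0542). Acta1 (-0.99 ± 0.61, adjusted p = 0.206), Myh4 (-2.11 ± 0.89, adjusted p = 0.0648) and Tnni1 (-0.41 ± 0.48, adjusted p = 0.513) did not pass. Myh7 held 740 counts in E7 ear and 3 in these grafts, 0.514% of the ear level (exact 95% interval 0.106 to 1.51%).

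At 28 dpg 13 genes fell and 1 rose in E7 grafts against E7 ear, where 24.2% of genes fell and 23.8% rose. All 6 slow genes were among those that fell, Myh7 on only 2 counts in the grafts, with 5 of 10 structure, 1 of 9 metabolic and 1 of 14 fast genes. For 28 genes every graft was below every ear, where 29.9% of genes were. Fast members stood at 70.6% (range 27.2 to 322%) of the E7 ear mean, and the slow members other than Myh7 at 27.1% (range 9.80 to 34.9%). The gene that rose was Actn3, at 22.3, 14.0 and 10.1 CPM in ear and 44.3, 51.8 and 47.5 CPM in the grafts (1.63 ± 0.62, adjusted p = 0.0375), with no overlap. Its call was lost without the second or the third E7 ear library or any 1 of the grafts (adjusted p = 0.0927, 0.123, 0.0625, 0.0784 and 0.0664). Myh2 was the fast gene that fell (-1.88 ± 0.54, adjusted p = 0.00862). Tnnt1 (-3.35 ± 0.50, adjusted p = 4.08e-05), Tnnc1 (-2.67 ± 0.69, adjusted p = 0.00404) and Tnni1 (-1.51 ± 0.52, adjusted p = 0.0228) fell, the last not without the first or the second E7 ear library or graft replicate 1 or 2 (adjusted p = 0.0593, 0.0545, 0.0703 and 0.0571). Tcap (-1.90 ± 0.50, adjusted p = 0.00491), Myot (-1.87 ± 0.48, adjusted p = 0.00382) and Rpl3l (-1.62 ± 0.54, adjusted p = 0.0189) also fell, Rpl3l not without the first E7 ear library or graft replicate 1 (0.0571 and 0.0727). Acta1 (-0.08 ± 0.60, adjusted p = 0.928), Ckm (-0.64 ± 0.64, adjusted p = 0.428), Myh4 (-0.45 ± 0.84, adjusted p = 0.68) and Tnnt3 (-0.60 ± 0.57, adjusted p = 0.402) did not pass. Without graft replicate 1 the counts were 9 lower and 0 higher, and a fit of those 6 libraries alone gave 27 lower and 3 higher. Myh7 held 2 counts in the grafts, 0.387% of the ear level (0.0468 to 1.4%).

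The difference between E7 and C57 skin was compared between grafts and ear in 1 fit. No member passed at 14 dpg (edgeR), where 4.02% of genes differed upward and 8.61% downward, or at 28 dpg, where 2.29% and 5.13% did. At an unadjusted p below 0.05 15 did at 14 dpg and 1 at 28 dpg, and DESeq2 called 5 and 0. At 14 dpg the difference was 1.38 ± 0.86, adjusted p = 0.316 for Acta1, 2.16 ± 0.96, adjusted p = 0.151 for Ckm, 2.46 ± 1.23, adjusted p = 0.204 for Myh4, 1.61 ± 0.81, adjusted p = 0.207 for Tnnt3 and 0.72 ± 0.65, adjusted p = 0.505 for Tnni1. The median over the 39 was 1.47 at 14 dpg and 0.23 at 28 dpg, against -0.045 and 0.008 over all genes. Without C57 graft replicate 2 at 14 dpg 6 members passed upward at 14 dpg, and without E7 graft replicate 2 at 14 dpg 8 did. At 28 dpg the values were 0.23 ± 0.85, adjusted p = 0.909 for Acta1, 0.21 ± 0.88, adjusted p = 0.918 for Ckm, 0.21 ± 1.18, adjusted p = 0.939 for Myh4, 0.15 ± 0.79, adjusted p = 0.935 for Tnnt3 and 1.84 ± 0.75, adjusted p = 0.145 for Tnni1.

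Between grafts labelled CD1dKOxE7 and E7 grafts no muscle gene passed at either day (edgeR), where 15.1% of genes rose and 14.8% fell at 14 dpg, and 0.0741% and 0.136% at 28 dpg. At an unadjusted p below 0.05 7 passed at 14 dpg and 8 at 28 dpg, and DESeq2 called 3 and 0. At 14 dpg 6 genes were higher in every CD1dKOxE7 library, where 21.4% of genes were: Myh4, Pvalb, Mybpc2, Eno3, Ampd1 and Apobec2. Mybpc2 was at 7.61, 0.329 and 6.20 CPM in E7 and 15.1, 49.4 and 10.5 CPM in CD1dKOxE7 grafts (2.49 ± 0.90, adjusted p = 0.0512), and Myh4 at 83.7, 10.1 and 63.4 and 149.6, 561 and 113 CPM (2.40 ± 0.99, adjusted p = 0.0868). Replicate 2 was the highest CD1dKOxE7 library for both genes. The Mybpc2 value of 0.329 CPM in E7 replicate 2 was at the floor. The other panel values at 14 dpg were 0.66 ± 0.66, adjusted p = 0.498 for Acta1, 1.36 ± 0.75, adjusted p = 0.199 for Ckm, 0.82 ± 0.64, adjusted p = 0.369 for Tnnt3 and 0.32 ± 0.52, adjusted p = 0.69 for Tnni1. Without E7 replicate 3 at 14 dpg 2 genes rose, and without CD1dKOxE7 replicate 1 or 3 at 14 dpg 1 did.

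At 28 dpg 27 genes were lower in every library labelled CD1dKOxE7 than in every E7 graft, where 7.63% of genes were, and 1, Tnnt1, was higher, where 8.57% were. The median was -1.09 for fast and 0.73 for slow genes, against 0.001 over all genes. The slow median includes Myh7, which held only 2 counts over the E7 grafts. Ckm was at 77.1, 73.4 and 76.4 CPM in E7 and 14.9, 20.8 and 52.4 CPM in CD1dKOxE7 grafts (-1.39 ± 0.75, adjusted p = 0.457). Tnnt1 was at 3.23, 3.38 and 3.12 and 11.3, 16.3 and 3.87 CPM (1.69 ± 0.55, adjusted p = 0.212). Myh4 was at 213, 162 and 115 and 10.1, 26.2 and 144 CPM (-1.47 ± 0.97, adjusted p = 0.563), and here replicate 3 lay among the E7 grafts and replicates 1 and 2 below them. The remaining panel values were -1.20 ± 0.67, adjusted p = 0.474 for Acta1, -1.06 ± 0.64, adjusted p = 0.518 for Tnnt3 and 0.54 ± 0.58, adjusted p = 0.749 for Tnni1.

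The slow chain Myh7 and the fast IIa chain Myh2 split the 3 libraries of this group. Myh7 was at 2.83, 7.18 and 0 CPM in replicates 1, 2 and 3, and Myh2 at 61.6, 82.1 and 41.6 CPM. Pooled, Myh7 held 81 counts, 14.6% of the E7 ear level (exact 95% interval 11.4 to 18.4%), against 14 counts at 14 dpg and 2 in E7 grafts at 28 dpg. The interval covers counting error of the pool only, and not the spread between these 3 libraries. With 0 counts in replicate 3, the exact 95% interval for its share of the heavy chain counts reached 0.142%. Replicates 1 and 2 had higher Myh7 levels, higher Myh2 shares of the heavy chain counts (32.4, 36.5 and 12.0% in replicates 1 to 3) and fewer trunk-type Hox counts than any other graft. Replicate 3 did not. Cartilage genes summed to 187, 231 and 16.8 CPM in replicates 1, 2 and 3. A like spread was present in E7 grafts of 28 dpg, at 330.5, 269.2 and 15.2 CPM. The part of these differences in the group's values was not tested. Without replicate 3, 2 muscle genes rose against E7 grafts.

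From 14 to 28 dpg in grafts labelled CD1dKOxE7, 1 of 39 genes passed: Myf6 fell, from 2.89, 2.67 and 2.02 to 0.979, 0.783 and 0.8 CPM (-1.54 ± 0.52, adjusted p = 0.0444), where 11.8% of genes fell and 10.8% rose. The call was lost without any 1 of the 6 libraries (adjusted p = 0.114, 0.0906 and 0.0595 without replicates 1 to 3 at 14 dpg, and 0.0985, 0.132 and 0.0717 at 28 dpg). The panel values were -0.94 ± 0.67, adjusted p = 0.349 for Acta1, -1.18 ± 0.74, adjusted p = 0.286 for Ckm, -2.20 ± 0.98, adjusted p = 0.126 for Myh4, -0.85 ± 0.64, adjusted p = 0.378 for Tnnt3, -0.87 ± 0.53, adjusted p = 0.269 for Tnni1 and 2.72 ± 1.09, adjusted p = 0.0867 for Myh7. Without replicate 3 at 28 dpg, Myh4 fell (-3.92, adjusted p = 0.0211) and Myh7 rose (3.29, adjusted p = 0.00754), and in all 1 gene rose and 2 fell.

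The difference in change over time between CD1dKOxE7 and E7 grafts passed for 3 genes, where 6.31% of genes differed in that direction and 6.54% in the other; like the other difference of changes, this one was added after the single changes were known. Mybpc2 was at 7.61, 0.329 and 6.20 and 27.0, 25.4 and 25.0 CPM at 14 and 28 dpg in E7 grafts, and at 15.1, 49.4 and 10.5 and 1.74, 3.26 and 20.4 CPM in CD1dKOxE7 grafts (difference of log2 changes -4.15 ± 1.23, adjusted p = 0.0411). Pvalb was at 37.5, 83.9 and 26.8 and 9.90, 15.0 and 39.5 CPM in CD1dKOxE7 grafts (-3.21 ± 0.95, adjusted p = 0.0404). Ampd1, which encodes muscle adenosine monophosphate deaminase, was at 2.85, 0.548 and 3.22 and 4.47, 7.75 and 5.50 CPM in E7 and 4.04, 11.2 and 4.47 and 1.85, 1.96 and 3.33 CPM in CD1dKOxE7 grafts (-2.95 ± 0.85, adjusted p = 0.0353). In each, E7 values were higher at 28 dpg and CD1dKOxE7 means lower. The Mybpc2 value of 0.329 CPM in E7 replicate 2 at 14 dpg was at the floor of 3 counts. The panel gave -1.86 ± 0.94, adjusted p = 0.216 for Acta1, -2.75 ± 1.06, adjusted p = 0.105 for Ckm, -3.87 ± 1.39, adjusted p = 0.0818 for Myh4, -1.88 ± 0.91, adjusted p = 0.193 for Tnnt3 and 0.22 ± 0.78, adjusted p = 0.889 for Tnni1. The count of 3 was 0 without E7 replicate 1 or 2 at 14 dpg, E7 replicate 2 or 3 at 28 dpg, CD1dKOxE7 replicate 2 at 14 dpg or CD1dKOxE7 replicate 1 or 2 at 28 dpg. It was 1 without E7 replicate 1 at 28 dpg and 7 without CD1dKOxE7 replicate 3 at 28 dpg, where Myh4 was among them (-5.59, adjusted p = 0.0138).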

How the data were processed

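RNA libraries (TruSeq kit, per the labels' protocols) of 24 skin samples were sequenced, and the deposited files hold whole-number counts per gene that the authors made from the reads. Demultiplexing with bcl2fastq 1.8.4, Trimmomatic, FastQC and the mm10 build are named per the submitters' processing notes; the aligner, counter, annotation and use of strand are not given in the sources used here. The 39 genes and all marker lists were chosen with earlier results of these data known.

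Counts were tested with edgeR 4.0.16 (limma 3.58.1, R 4.3.3): TMM scaling, filterByExpr by group, robust quasi-likelihood fits and Benjamini-Hochberg adjustment over all genes tested. The ear fit used 6 libraries and 15720 genes, the graft fit 18 and 16189, and comparisons of grafts with ear all 24 and 16612. SEs are the log2 fold change divided by the square root of F. Levels are CPM, pair ratios added 0.5 to each count, and no fitted fold is printed for a group total of 3 counts or fewer. Medians and counts of genes that passed still include Myh7 in such groups. Intervals are exact 95% and cover counting error only. Percents of the ear level that carry an interval rest on counts pooled over a group and unscaled library totals, and other percents on mean CPM. Every comparison names Acta1, Ckm, Myh4, Tnnt3, Myh7 and Tnni1, plus, among genes that passed, the 2 largest absolute changes in each of the 4 classes. Where a group held 3 or fewer counts of Myh7, it has counts in place of a fitted value and is left out of the differences between differences; other genes and libraries were named after their values were seen.

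Alternatives were other scalings (RLE, upper quartile, TMM without the 39 genes), other filters, DESeq2 1.42.0, other sets of libraries in the fit, a replicate block and leaving out each library. The procedure was tested on simulated counts that had the same spread for all genes and libraries. Many muscle genes varied more than that between replicate grafts, so the simulation does not cover them. Python 3.11.15, pandas 2.3.3, scipy 1.17.1 and matplotlib 3.10.9 were used for the descriptions and plots. Promoters came from RefSeq (GRCm38.p6), and 29 of the 39 genes had one.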

Additional observations from a re-analysis of the deposited data

Results flagged for a closer look

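The change from 14 to 28 dpg differed between grafts labelled CD1dKOxE7 and E7 grafts, by a test of the difference itself (edgeR, 3 of 39 genes, all downward). Over all genes 6.31% passed downward and 6.54% upward, so the count is not set apart from the background. The difference of log2 changes was -4.15 for Mybpc2 (adjusted p = 0.0411), -3.21 for Pvalb (adjusted p = 0.0404) and -2.95 for Ampd1 (adjusted p = 0.0353). All are genes of fast fibres or of muscle energy metabolism, and in each the E7 mean was higher and the CD1dKOxE7 mean lower at 28 dpg. At 28 dpg CD1dKOxE7 replicates 1 and 2 stood apart from replicate 3, for Mybpc2 at 1.74 and 3.26 against 20.4 CPM. At 14 dpg the Mybpc2 value of E7 replicate 2 was at the floor of 3 counts. Leaving out single libraries gave between 0 and 7 such genes.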

How the results depend on the processing

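RLE scaling, TMM without the 39 genes and a minimum of 1 CPM in 3 libraries kept all 16 counts of genes that passed within 1.5 times. Other settings moved some counts. For E7 against C57 grafts at 28 dpg (9), no low-count filter gave 2, all 24 libraries in 1 fit 21 and only the groups compared 32. For CD1dKOxE7 against E7 grafts at 14 dpg (0), DESeq2 gave 3 and all 24 libraries 5. For E7 grafts over time (0), DESeq2, all 24 libraries and only the groups compared each gave 3. For CD1dKOxE7 grafts over time (1), no filter gave 0, DESeq2 2 and all 24 libraries 3, and for its difference from E7 grafts (3) these gave 0, 8 and 8. For the E7 difference at 14 dpg minus that in ear (0), upper quartile scaling gave 2 and DESeq2 5. With only the groups compared, E7 grafts against E7 ear gave 17 at 14 dpg (28) and 30 at 28 dpg (14). The causes were not tested.

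Leaving out 1 library gave 0 to 10 genes for E7 against C57 grafts at 28 dpg, 15 to 33 for C57 grafts over time, 0 to 2 for CD1dKOxE7 against E7 grafts at each day, 0 to 3 for E7 and for CD1dKOxE7 grafts over time, 0 to 7 for the difference between these, 0 to 8 for the E7 difference at 14 dpg minus ear, and 9 to 13 for E7 grafts at 28 dpg against ear. Signs turned, for values that had not passed, within these log2 ranges: at 14 dpg E7 against C57, Acta1 -0.70 to 0.69, Ckm -0.29 to 1.22, Myh4 -0.41 to 1.18 and Tnnt3 -0.48 to 0.81; Myh7 in C57 grafts over time -1.84 to 0.10; Tnni1 -0.082 to 0.69 for CD1dKOxE7 against E7 at 14 dpg and -0.17 to 0.63 for its difference over time; at 28 dpg minus ear, Acta1 -0.04 to 0.56, Ckm -0.11 to 0.47, Myh4 -0.13 to 0.57 and Tnnt3 -0.13 to 0.47; and Acta1 -0.22 to 0.10 in E7 grafts at 28 dpg against ear.

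The replicate numbers did not pair the grafts: same-numbered libraries correlated at -0.331 to 0.277, and in 0 of 7 comparisons were all 3 over 0.1. With a replicate block, E7 against C57 grafts at 28 dpg gave 5 genes, CD1dKOxE7 grafts over time 0 and its difference from E7 grafts 1, while Acta1 and Tnnt3 at 14 dpg E7 against C57 had values of 0.06 and 0.14. The ear labels carry no shared numbers. Levels per coding length were also summed over the fast and over the slow genes of the troponin and myosin-binding protein C pairs only. The log2 ratio of these sums was 2.77 in C57 ear, 2.66 in E7 ear and 4.29 in E7 grafts at 28 dpg. The medians over the same pairs were 3.03, 2.94 and 4.62. The largest shift was in C57 grafts at 28 dpg, from 5.72 to 4.95, within the SD of 1.11 over its libraries. Myh7 in grafts, at 2 to 81 counts a group, was limited by depth.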
